A study of Mus musculus with 10 samples.

Results

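The feedback genes of NF-kB signalling and Irf1, 8 genes in all, were followed in embryonic mouse skin, of 32285 genes listed at E15.5 and E17.5 and 27998 at E16.5. The 8 members are Irf1, Tnfaip3, Nfkbia, Nfkbiz, Relb, Birc3, Zfp36 and Trib1. They were chosen by their levels in epithelial and fibroblast cells of these same libraries, so those levels are given as a description and without a test. Single-cell RNA sequencing of total back skin gave 10 libraries. The E15.5 libraries were 2 controls (replicates 2 and 3) and 2 MOF cKO (replicates 5 and 6), the E16.5 libraries 2 controls and 2 MOF cKO, and the E17.5 libraries 1 control and 1 QPC cKO. MOF cKO embryos carry MOFfl/fl with K14Cre and QPC cKO embryos QPCfl/fl with K14Cre. MOF (gene symbol Kat8) acetylates lysine 16 of histone H4, and QPC (Uqcrq) is a subunit of respiratory complex III. The K14 promoter drives Cre in epithelium, so the fibroblasts, leukocytes and vessel cells are not its target. Mice were of mixed C57Bl/6J and CD-1 background with littermate controls, and the study describes MOF cKO replicate 6 at E15.5 as a mosaic for the histone mark. The labels number the replicates without naming the embryos, so p-values measure only the spread between these samples.

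NF-kB is a family of paired transcription factors that rest in the cytoplasm, bound by inhibitors of the IkB family. Ligands such as TNF and interleukin-1 activate kinases that destroy the inhibitor, and the freed factor then switches on genes that include its own brakes. Nfkbia encodes IkB alpha, the main inhibitor, and Tnfaip3 encodes A20, which edits ubiquitin chains upstream of the kinases. Nfkbiz encodes a nuclear IkB protein, Relb a subunit of the alternative pathway, and Birc3 a ubiquitin ligase at TNF receptors. Zfp36 encodes tristetraprolin, which marks inflammatory mRNAs for decay, Trib1 a pseudokinase that directs proteins to degradation, and Irf1 a transcription factor of interferon responses. In skin these brakes hold keratinocyte and immune cell inflammation in check.

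The genomic letters 5′ of the start are shown because NF-kB is known to bind the kappaB element in genes of this kind. Windows of 250 bases before an annotated start were found for 5 of the 8 members in RefSeq (GRCm38.p6), namely Irf1, Tnfaip3, Nfkbia, Birc3 and Zfp36. Matches to the kappaB consensus, searched on both strands, are in capitals. The consensus was present in 3 of these 5 genes and in 7.25% of 32851 promoter windows of the same length. Irf1 and Tnfaip3 have a further window each, so the first share is per gene and the second per window. The Irf1 window lies at chr11:53769764-53770013 on the + strand and the Nfkbia window at chr12:55492648-55492897 on the − strand. For Tnfaip3 (chr10:19015411-19015660, − strand), whose window overlaps annotated exons, only 30 bases around each match are given.
Irf1: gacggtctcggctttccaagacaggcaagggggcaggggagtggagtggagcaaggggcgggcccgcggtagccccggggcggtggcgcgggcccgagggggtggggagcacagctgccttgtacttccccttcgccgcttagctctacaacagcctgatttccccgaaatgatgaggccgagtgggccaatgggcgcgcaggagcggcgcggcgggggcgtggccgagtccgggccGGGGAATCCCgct
Nfkbia: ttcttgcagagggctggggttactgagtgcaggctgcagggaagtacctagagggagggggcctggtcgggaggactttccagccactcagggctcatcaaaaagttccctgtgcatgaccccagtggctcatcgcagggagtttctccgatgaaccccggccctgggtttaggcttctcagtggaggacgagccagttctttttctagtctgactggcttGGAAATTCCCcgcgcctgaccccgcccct
Tnfaip3, match 1: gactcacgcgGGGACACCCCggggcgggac
Tnfaip3, match 2: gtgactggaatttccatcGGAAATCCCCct

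The Nfkbia match ends 20 bases before the start and is the 1 match that also fits the stricter core GGGANNTTCC, a subset of the consensus that 1.21% of the windows hold. A further Irf1 window, at chr11:53770223-53770472, and a further Tnfaip3 window, at chr10:19011964-19012213, held no match. The Birc3 window and the Zfp36 window, which is annotated as exon throughout, held none. No binding was measured, and a match of letters is not a site.

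The genes lie on 7 chromosomes of GRCm38 by GENCODE vM21. Irf1 spans chr11:53770014-53778374 (+), Tnfaip3 chr10:19000910-19015657 (−), Nfkbia chr12:55489410-55492647 (−) and Nfkbiz chr16:55811375-55838899 (−). Relb spans chr7:19606217-19629438 (−), Birc3 chr9:7848699-7873186 (−), Zfp36 chr7:28376784-28380253 (−) and Trib1 chr15:59648350-59657099 (+). Gm17334 and Gm44710 are annotated on the opposite strands of Irf1 and Zfp36. Reads were 3′ tags counted over each gene as a whole, so isoforms were not separated.

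Levels are CPM, here the UMIs (counted molecules) of a gene per 1000000 UMIs, summed over the cells of 1 class in 1 library. Kept cells, with over 1000 and under 6000 genes and under 10% mitochondrial UMIs, numbered 8396 to 10653 at E15.5, 716 to 2447 at E16.5, and 5353 and 6118 at E17.5, with 13609345 to 203392303 UMIs deposited per library. Epithelial cells were those with 10 or more Krt5 and Krt14 UMIs, and fibroblasts those with 30 or more Col1a1 and Col3a1 UMIs and fewer keratin UMIs. Epithelial cells numbered 30 and 39 in the E16.5 MOF cKO libraries, against 266 and 512 in the controls. Any pair of libraries shared at most 36 barcodes (0.354% of the smaller). The labels name a different 10x kit version for each stage, and E16.5 also has a different gene list, so stage and kit version cannot be told apart and no level is compared between stages by a test.

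The epithelial gate was not pure in every library. In the E17.5 control 1502 of 3069 epithelial cells also passed the gate of another cell class, against 161 of 1162 in QPC cKO. The 7 fibroblast markers summed there to 28500 CPM for the control library and to 4970 for QPC cKO, and to 1400 and 1010 after cells passing another gate were left out. In E16.5 control replicate 1 the same held for 86 of 266 cells, against 30 of 512 in replicate 2. At E15.5 the counts were 221 of 2635 and 225 of 2896 in controls, and 162 of 1061 and 190 of 1648 in MOF cKO. For epithelium, the counts of members and the values that moved most are also given without these cells. The summed epithelial markers in epithelial cells also differed between the E15.5 MOF cKO libraries, at 7130 in replicate 5 and 12900 in replicate 6, against 16600 and 14400 in the controls. In QPC cKO, Uqcrq stood at 43.9 CPM of epithelial cells against 106 in the control. In E17.5 fibroblasts it went the other way, at 122 in QPC cKO against 69.4 in the control. The part of this difference in the members' ratios was not tested. Kat8 was at 13 and 10 CPM in E15.5 MOF cKO epithelium and 13 and 14 in the controls. In E16.5 epithelium it stood at 17.6 and 14.8 in controls and at 8.66 and 3.75 in MOF cKO, the last 2 from 5 and 3 UMIs. In fibroblasts, which are not the target of Cre, it was also lower in both MOF cKO libraries at each stage, at 9.18 and 9.62 against 6.83 and 5.98 at E15.5 and at 9.60 and 8.23 against 2.81 and 5.39 at E16.5. The part of these fibroblast values in the members' levels was not tested. The Kat8 tags need not lie in the deleted part.

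In E15.5 epithelium 7 of the 8 members were lower in both MOF cKO libraries than in both controls, and Relb was higher in both. Their median log2 ratio was -0.65, beside -0.13 over all genes compared. Of all 12217 genes with a mean of 1 or more, 32.9% were lower and 18.1% higher in this way, and nothing is read from the members' count because it is what chose them.

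Inhibitors that act on the factor or upstream of it come first. Tnfaip3 stood at 43.9 and 40.6 CPM in the control libraries and at 13.5 and 15.3 in MOF cKO, a log2 ratio of -1.49. The groups did not overlap, and each MOF cKO library held less than the lowest control. Nfkbia stood at 539 and 501 in controls and at 412 and 308 in MOF cKO, with a log2 ratio of -0.53. Nfkbiz was closer between the groups, at 69.6 and 70.7 against 49.4 and 57.9. Birc3 stood at 27.7 and 25.4 against 16.1 and 17.8. Relb, the subunit among brakes, was the member that was higher, at 31.4 and 22.6 in MOF cKO against 20.7 and 18.6. The Relb libraries did not overlap, but MOF cKO replicate 6 was within 2 CPM of the higher control.

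Irf1 and the regulators of mRNA and protein decay were lower as well. Irf1 stood at 122 and 126 CPM in control epithelium and at 41.6 and 55.1 in MOF cKO, a log2 ratio of -1.34. Zfp36 stood at 357 and 340 against 172 and 261, and Trib1 at 109 and 90.2 against 36.2 and 39.4. For Irf1 and Trib1 the higher MOF cKO library held less than the lower control by a wide margin, while the 2 MOF cKO libraries differed for Zfp36 by more than the 2 controls. Without cells that pass another gate the same 7 members were lower in both MOF cKO libraries, beside 35.5% of 11764 genes, and Irf1 then stood at 28.9 and 52.2.

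**Figure D1:**
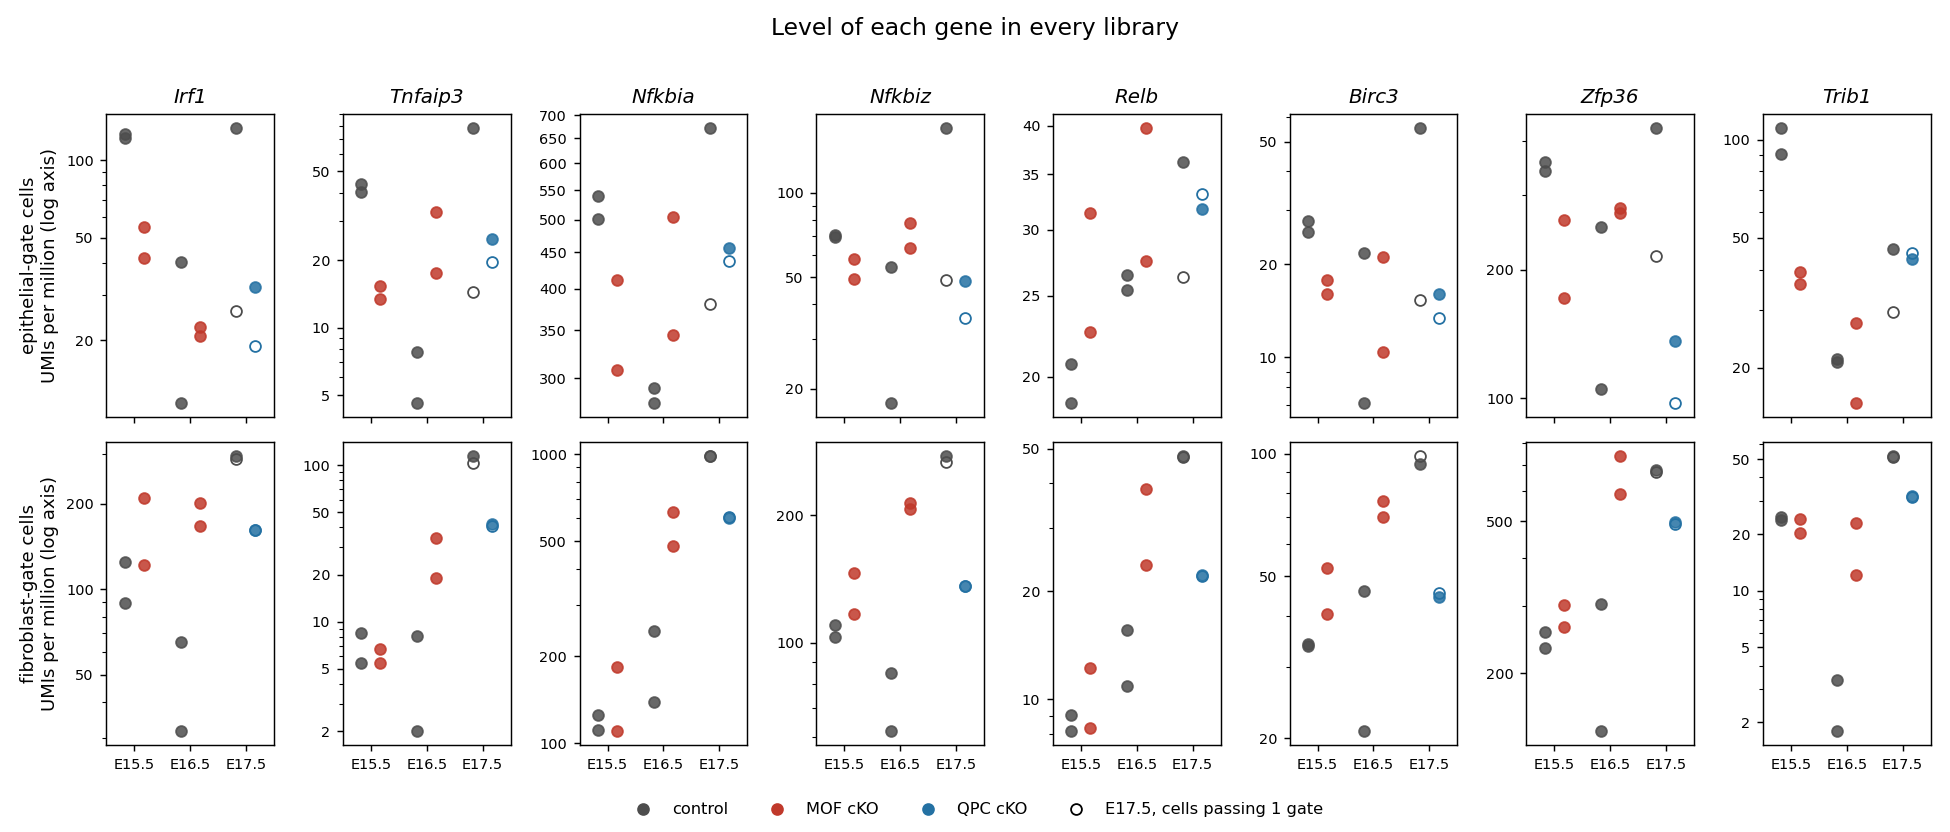
CPM (log axes, 1 scale per panel) of each gene in every library, in epithelial cells (top row) and fibroblasts (bottom row), by embryonic stage and genotype. Filled points are all cells of the gate and open points at E17.5 are cells that pass 1 gate alone: Irf1 in the E17.5 control epithelium moves from 134 to 26.0.

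The members differed inside the epithelium. Cells were divided at 10 UMIs of Krt1 and Krt10, keratins of the differentiating layers above the basal one. In E15.5 control epithelium, Tnfaip3 stood at 46.9 and 45.4 CPM in cells under the limit and at 7.27 and 6.66 in cells at or over it. Irf1 stood at 129 and 139 under the limit and at 36.9 and 33.2 over it, and Nfkbia at 565 and 548 against 221 and 178. Zfp36 and Nfkbiz were near the same on both sides, at 358 and 333 against 341 and 388 for Zfp36 and at 69.9 and 71.1 against 66.0 and 68.3 for Nfkbiz. The controls held 165 and 312 cells at or over the limit, and the MOF cKO libraries 160 and 203.

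Under the limit the same 7 members were lower in both MOF cKO libraries than in both controls and Relb was higher, beside 4128 (34.0%) of 12140 genes lower and 2068 higher. There Irf1 stood at 46.4 and 60.6, Tnfaip3 at 14.4 and 16.8, and Trib1 at 39.3 and 42.2 against 112 and 96.6 in controls. In cells with 10 or more of these UMIs, 3 members (Irf1, Zfp36 and Trib1) were lower in both MOF cKO libraries and 2 (Nfkbiz and Relb) were higher, beside 2777 (23.1%) of 12037 genes lower and 2107 higher. These are the libraries and the contrast that chose the members, so the counts on both sides are a description. Trib1 stood there at 22.3 and 21.4 against 66.6 and 45.5, and Nfkbiz at 77.1 and 92.4 against 66.0 and 68.3, while Tnfaip3 overlapped at 9.43 and 5.19 against 7.27 and 6.66. The Tnfaip3 values over the limit rest on 24 to 48 UMIs.

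**Figure D2:**
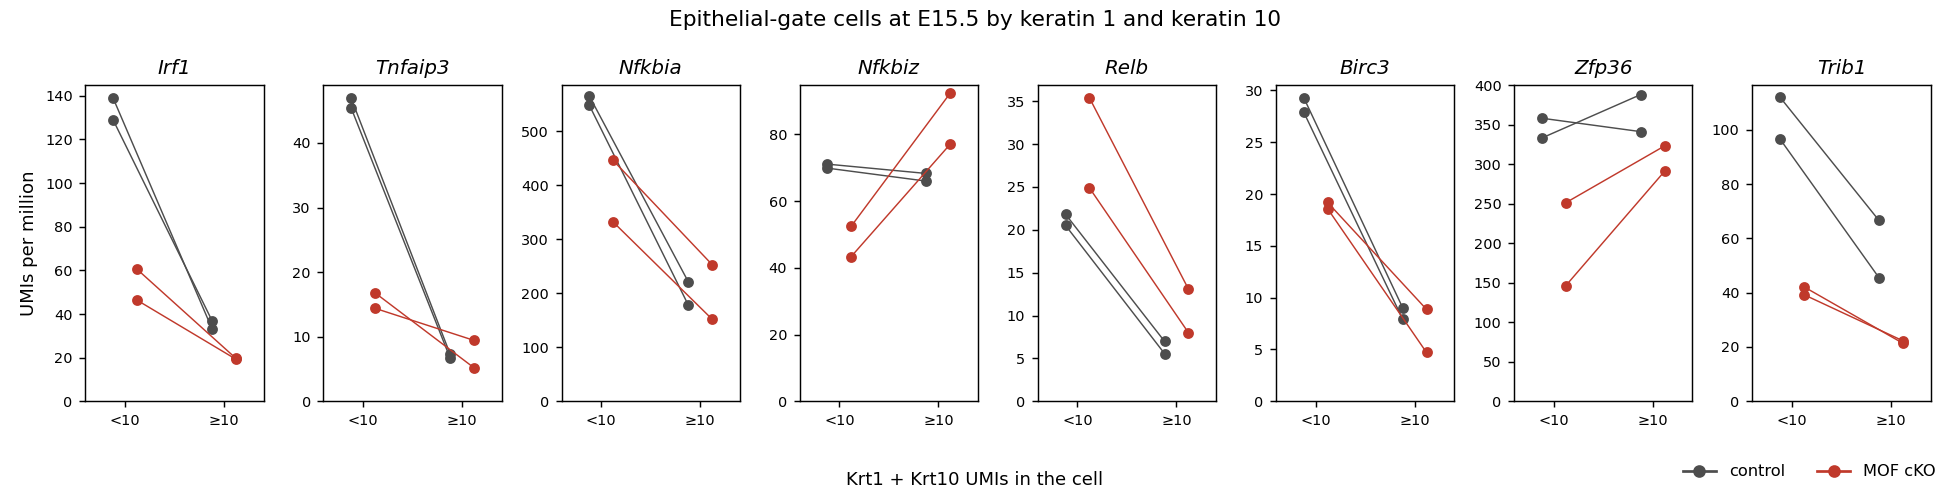
CPM of each gene in E15.5 epithelial cells with fewer than 10, and with 10 or more, UMIs of Krt1 and Krt10, with 1 line per library. The controls start above MOF cKO in cells under the limit for every gene shown except Relb, and Tnfaip3 meets near 7 CPM in the others.

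In E15.5 fibroblasts 3 members were higher in both MOF cKO libraries and none lower, with 5 overlapping. Of all 12606 genes compared, 27.0% were higher and 21.3% lower in both. The members' count is a description, since these levels entered their choice. Nfkbiz stood at 103 and 110 CPM in controls and at 146 and 117 in MOF cKO. Birc3 stood at 33.8 and 34.2 against 52.4 and 40.5, and Zfp36 at 257 and 233 against 302 and 265. Irf1 had the largest log2 ratio, 0.62, but overlapped, at 89.3 and 125 against 209 and 122. In the Irf1, Nfkbia and Relb values, MOF cKO replicate 5 was above both controls and replicate 6 between or below them. Leaving out replicate 6 raised the count of higher members from 3 to 6. Such a count can only stay or rise when a library is left out, and the share of all genes was not counted there. Without cells that pass another gate 4 members were higher and 1 lower, beside 27.8% and 21.6% of 12357 genes. Irf1 was then among the higher, at a log2 ratio of 0.66, and Trib1 was the lower, at -0.17.

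At E16.5 the fibroblasts of MOF cKO held more of every member. All 8 were higher in both MOF cKO libraries than in both controls, at log2 ratios from 1.12 to 2.37, with a median of 1.55 beside -0.11 over all genes. Of 12460 genes compared, 17.8% were higher and 36.0% lower in this way, and the members' count restates how they were chosen.

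Nfkbia in fibroblasts stood at 245 and 139 CPM in controls and at 629 and 480 in MOF cKO. Zfp36 stood at 303 and 141 against 740 and 590, and Nfkbiz at 85.0 and 61.7 against 214 and 207. Both MOF cKO libraries were above the higher control in each. Irf1 stood at 65.1 and 31.5 against 201 and 167. Tnfaip3 stood at 8.07 and 1.99 against 34.0 and 18.9, from 30 to 235 UMIs per library. Control replicate 2 was the lowest library for all 8 members, and control replicate 1 lay between it and MOF cKO. Trib1 stood at 3.34 and 1.79 against 22.8 and 12.1, which in the controls rests on 24 and 27 UMIs. Relb stood at 15.6 and 10.9 against 38.6 and 23.7, and Birc3 at 45.9 and 20.8 against 76.7 and 70.1. The count was 8 of 8 under each alternative tried. Leaving out a library could not lower it, since no member overlapped between the groups.

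Epithelium at E16.5 had few MOF cKO cells. Of the 8 members, 5 were higher in both MOF cKO libraries and none was lower, beside 12.3% and 53.5% of 12524 genes. Nothing is read from this count, since these levels entered the choice of members. The median log2 ratio of the members was 0.47 and that of all genes -0.70. In the edgeR fit used below for the pathway, which rescales the libraries, the median of all genes was -0.11. Tnfaip3 stood at 7.78 and 4.62 in controls and at 25.2 ± 10.9 (SD, n = 2) in MOF cKO, from 19 and 14 UMIs. Nfkbia stood at 291 and 277 against 504 and 345, Nfkbiz at 54.2 and 17.8 against 77.9 and 63.7. Relb stood at 25.4 and 26.5 against 39.8 and 27.5, and Zfp36 at 252 and 105 against 279 and 272. In these libraries a single cell held up to 45.5% of a member's UMIs (Trib1), and without the cell that held most of each member the count of higher members was 2 and that of lower members 1. Weighting each cell equally left 1 higher. Shares of all genes were not counted under these settings. Irf1, Birc3 and Trib1 overlapped, Irf1 at 40.2 and 11.4 against 20.8 and 22.5. Without cells that pass another gate 5 members were again higher and none lower, beside 13.6% and 51.1% of 12058 genes. Irf1 then stood at 24.1 and 10.3 against 20.8 and 24.4, so its log2 ratio went from -0.24 to 0.37 and the groups still overlapped. Birc3 went from 0.12 to 0.77 and Trib1 from 0.03 to -0.10, both still overlapping. Tnfaip3 stood at 7.30 and 4.44 against 32.9 and 17.9 in these cells.

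**Figure D3:**
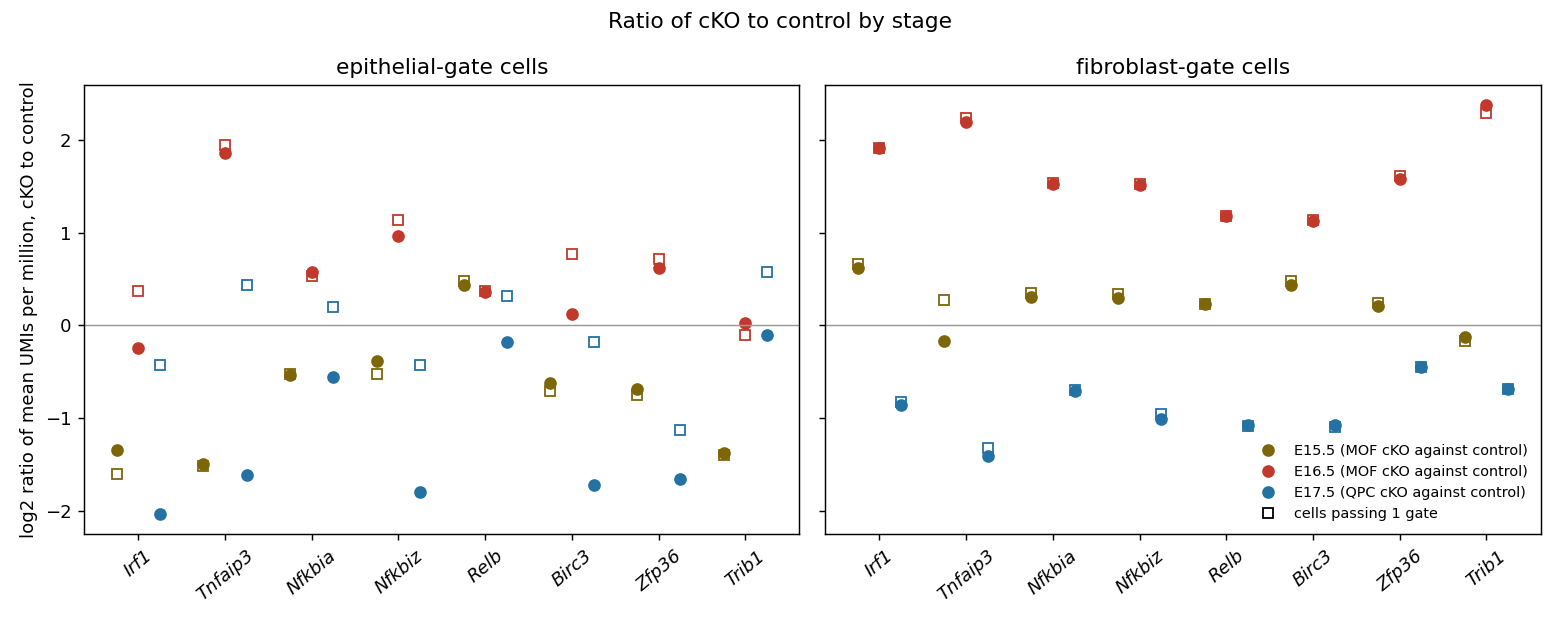
Log2 ratio of mean CPM, cKO to control, of each gene by stage, in epithelial cells (left) and fibroblasts (right). Filled circles are all cells of the gate and open squares are cells that pass 1 gate alone: E16.5 fibroblasts lie between 1.12 and 2.37, and the median of the E17.5 epithelial ratios is -1.64 for the circles and 0.01 for the squares.

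The E17.5 comparison has a single library on each side, so counting intervals are given and no test. In fibroblasts every member was lower in QPC cKO, with a median log2 ratio of -0.94 beside 0.10 over all genes. Lower by 2-fold or more were 4 of 8, beside 1.49% of the 13322 genes with 50 or more UMIs in either library. To that extent 0.706% were higher. The members were chosen by levels that include these libraries, so their counts here are a description. Tnfaip3 stood at 114 CPM in the control and at 42.2 in QPC cKO. Relb stood at 47.6 against 22.2, Birc3 at 94.4 against 44.5, and Nfkbiz at 276 against 136. Irf1 (294 against 162), Nfkbia (983 against 600), Zfp36 (682 against 499) and Trib1 (51.8 against 31.7) changed by less. In cells passing 1 gate alone the count was 3 of 8, beside 1.52% of 13059 genes, since Nfkbiz went from a log2 ratio of -1.01 to -0.96. Tnfaip3 stood there at 103 (95% Poisson interval 99.9 to 107) against 40.8 (39.2 to 42.5).

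In E17.5 epithelium the ratio depended on which cells were counted. Over the whole gate 5 of 8 members were lower by 2-fold or more, beside 10.0% of 14096 genes lower and 1.16% higher. These levels also entered the choice of members, so the counts in this epithelium are a description. Irf1 stood at 134 against 32.2, Nfkbiz at 171 against 48.6 and Tnfaip3 at 78.5 against 25.0. Without cells that pass another gate, Irf1 stood at 26.0 (24.4 to 27.7) in the control and 19.0 (17.3 to 20.8) in QPC cKO. Tnfaip3 then stood at 14.4 (13.2 to 15.7) against 19.7 (18.0 to 21.5), so its direction turned. Trib1 likewise stood at 29.7 against 44.8 and Nfkbia at 381 against 437. Zfp36 alone stayed lower by 2-fold, at 215 (210 to 220) against 97.5 (93.7 to 102), which is 1 of 8 beside 0.983% of 12000 genes lower and 1.19% higher. The median log2 ratio of the members was then 0.01.

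The members had distinct class orders in E15.5 controls. Leukocyte-like cells led for Tnfaip3 at 350 ± 64.9 CPM (SD, n = 2), ahead of epithelium at 42.2 and endothelial-like cells at 13.7, with no overlap between these neighbours. Nfkbia also led there, at 709, then epithelium at 520 and endothelial-like cells at 260, again without overlap. Nfkbiz led there at 292, with endothelial-like, pericyte-like and fibroblast cells at 129, 120 and 106. Endothelial-like and pericyte-like values overlapped for Nfkbiz, as did pericyte-like and fibroblast values. Birc3 was highest in leukocyte-like cells at 45.9, followed by fibroblasts at 34.0 and pericyte-like cells at 31.7, which overlapped.

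Vessel cells led for the other 4. Irf1 was highest in endothelial-like cells at 208, then pericyte-like cells at 169 and epithelium at 124, while leukocyte-like cells held 39.0. Epithelium, fibroblasts at 107 and muscle-like cells at 102 overlapped for Irf1. Relb was highest in endothelial-like cells at 27.6, with no overlap to epithelium at 19.6. Trib1 was highest in endothelial-like cells at 108, overlapping epithelium at 99.6. Zfp36 was highest in pericyte-like cells at 437, overlapping leukocyte-like cells at 420. Melanocyte-like cells held the lowest levels of Irf1, Tnfaip3, Nfkbia, Nfkbiz, Relb and Zfp36. At E17.5 leukocyte-like cells led in the control for Tnfaip3, Nfkbia, Nfkbiz, Relb, Birc3 and Trib1, and pericyte-like cells for Irf1 and Zfp36, with 28 pericyte-like cells.

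**Figure D4:**
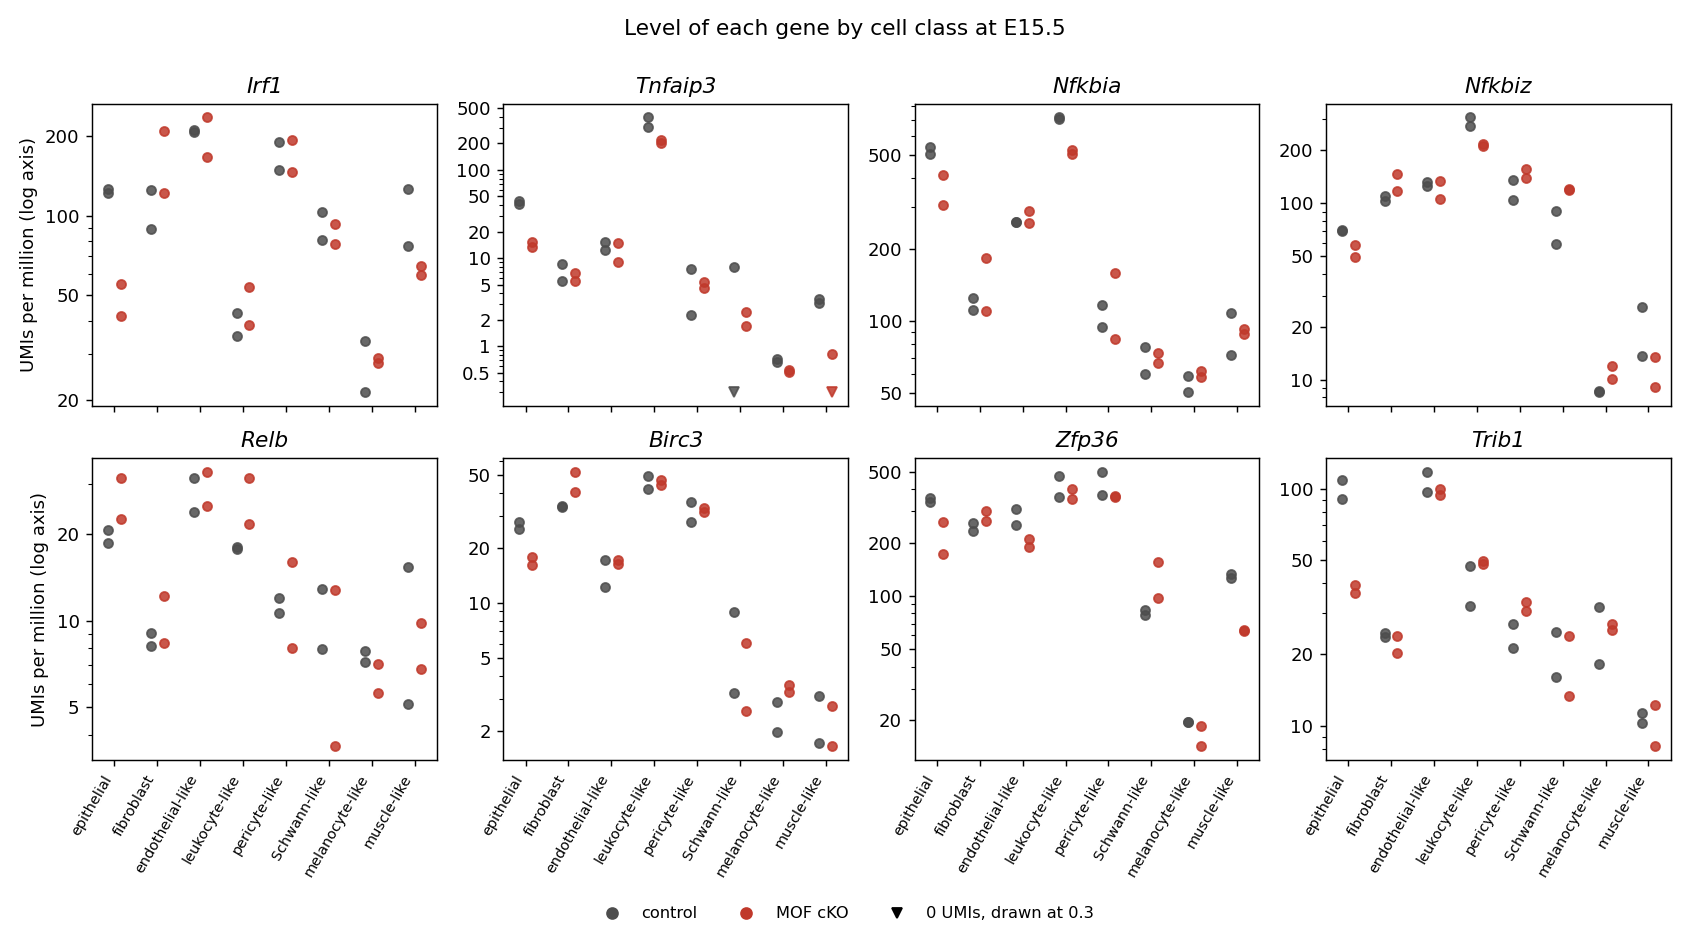
CPM (log axes) of each gene by cell class in the 4 E15.5 libraries, 1 point per library, with triangles for 0 UMIs. Tnfaip3 reaches 350 in control leukocyte-like cells on average and under 10 in fibroblasts.

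Classes outside the choice of members allowed a test, in 6 classes at E15.5 and in leukocyte-like cells at E16.5. In E15.5 leukocyte-like cells, 2.03% of 11807 genes passed an adjusted p of 0.05 by edgeR's quasi-likelihood test, and 2 of 8 members did. Tnfaip3 stood at 396 and 304 CPM in controls and at 200 and 217 in MOF cKO. It fell by 0.80 on the log2 scale (SE 0.135, edgeR adjusted p = 0.0355), lower in 2 of 2 MOF cKO samples. Nfkbia stood at 716 and 703 against 524 and 502, and fell by 0.52 (SE 0.0872, edgeR adjusted p = 0.0354). Both calls were lost without either MOF cKO library, and the Tnfaip3 call also at a 5% limit on mitochondrial UMIs. Over the alternatives the adjusted p ran from 4.11e-05 to 0.146 for Tnfaip3 and from 0.000839 to 0.178 for Nfkbia. Nfkbiz had 308 and 276 against 218 and 213 (log2 difference -0.49, edgeR adjusted p = 0.0564), and did not pass. It passed by DESeq2 (adjusted p = 0.01), without a filter on low counts (edgeR adjusted p = 0.0297) and without control replicate 3 (edgeR adjusted p = 0.0151). Irf1, Birc3, Zfp36, Relb and Trib1 did not pass, at log2 differences from -0.21 to 0.52, and of these Trib1 passed without control replicate 2 (edgeR adjusted p = 0.037).

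In E16.5 leukocyte-like cells 1.15% of 8111 genes passed and no member did by edgeR (1 of 8 at an unadjusted p under 0.05). The largest difference was that of Relb, 1.17 (SE 0.433, edgeR adjusted p = 0.285), at 20.7 and 24.1 CPM in controls and 66.7 and 33.2 in MOF cKO. Relb passed there without a filter on low counts, without MOF cKO replicate 2 and with a crossed pairing, at adjusted p values from 0.0113 to 0.0294 by edgeR, and over all alternatives the value reached 0.85. Tnfaip3 there stood at 195 and 163 against 182 and 188. A difference between the stages in leukocyte-like cells was not tested. In endothelial-like cells at E15.5, 0.606% of 9410 genes passed and no member did by edgeR, with Zfp36 alone at an unadjusted p under 0.05. Zfp36 had the smallest adjusted p, at 311 and 251 against 210 and 189 (log2 difference -0.43, SE 0.125, edgeR adjusted p = 0.16). It passed without control replicate 3 and without MOF cKO replicate 5, at edgeR adjusted p values of 0.0392 and 0.0172. In pericyte-like cells, 0.0911% of 8778 genes passed, 7 members were tested and none passed by edgeR, also at an unadjusted p under 0.05. Tnfaip3 was too low there to be tested. Leukocyte-like cells were the 1 class outside the choice of members with 20 or more cells in every E16.5 library.

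Muscle-like, Schwann-like and melanocyte-like cells of E15.5 were fitted as well, a choice made after seeing the data. Their libraries held 42 to 160, 34 to 109 and 126 to 155 cells, and 6 members were tested in each, since Tnfaip3 and Birc3 were too low. In muscle-like cells 0.176% of 8511 genes passed, and Zfp36 was the 1 member that did. It stood at 133 and 127 CPM in controls and at 64.6 and 63.4 in MOF cKO, and fell by 1.03 on the log2 scale (SE 0.17, edgeR adjusted p = 0.0154), lower in 2 of 2 MOF cKO samples. The call was lost by DESeq2 (adjusted p = 0.118) and without either MOF cKO library (edgeR adjusted p = 0.923 without replicate 5 and 0.139 without replicate 6), and over all alternatives the value ran from 5e-05 to 0.923. Irf1 stood there at 77.0 and 126 against 64.2 and 59.4 (log2 difference -0.77, edgeR adjusted p = 0.303). It did not pass, but did without control replicate 2 and without a filter on low counts.

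In Schwann-like cells 0% of 8136 genes passed edgeR's test (DESeq2 called 1 gene, and 396 genes had an unadjusted p under 0.05). Nfkbiz stood at 90.3 and 58.8 CPM in controls and at 119 and 120 in MOF cKO (log2 difference 0.84, edgeR adjusted p = 0.703), and Zfp36 at 83.9 and 77.8 against 155 and 97.1 (0.73, edgeR adjusted p = 0.886). The groups did not overlap for either, and each passed in 1 fit that left out a library, Nfkbiz without control replicate 2 and Zfp36 without MOF cKO replicate 6. In melanocyte-like cells 0.912% of 9100 genes passed and no member did by edgeR or DESeq2, with the smallest unadjusted p at 0.28 by edgeR (Nfkbiz). Their log2 differences ran from -0.21 to 0.41. Of the pathway lists, Gadd45b and Socs3 rose in melanocyte-like cells, and Socs3, of the dissociation list, fell in muscle-like cells from 428 and 343 to 215 and 194. The Gadd45b call was lost by DESeq2, at a 5% limit on mitochondrial UMIs, with library size alone and without control replicate 3. The Socs3 calls were lost at a 5% limit on mitochondrial UMIs, in melanocyte-like cells also by DESeq2 and in muscle-like cells also without either MOF cKO library.

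The rest of the pathway was counted from 9 lists of genes that are not members. The lists were also chosen with earlier results of these data known. Counts of list genes beside the share of all genes are thus a description. At E15.5 no list gene passed edgeR's test in epithelium or in fibroblasts, where 0% of 14625 and 0% of 16268 genes passed. At an unadjusted p under 0.05 there were 1360 and 2538 genes, and DESeq2 called 140 and 494, of which 8 and 11 were list genes. Without MOF cKO replicate 6, edgeR called 7015 genes in epithelium and 79 of the list genes, in a fit where the spread comes from the 2 controls alone and the lone MOF cKO library is assumed to vary like them. The output gene Cxcl10, a chemokine, stood in E15.5 epithelium at 209 and 193 CPM in controls and at 44 and 70.3 in MOF cKO (log2 fold change -1.71, SE 0.162, edgeR adjusted p = 0.503). Among Rel subunits Nfkb1 stood at 69.2 and 67.7 against 55.8 and 67, and Rel at 50.9 and 48.3 against 34 and 30.9, neither past the test. Receptors had a median log2 fold change of 0.07 there and dissociation genes -0.60, against -0.01 for all genes. On the same scale the median over the 17 output genes tested was 0.08, so the fall of Cxcl10 was not that of its list. Ligands stood at 0.48, interferon gamma and antigen processing at 0.24, relatives of the members at 0.13 and Rel subunits at 0.09. Adaptors and kinases stood at -0.20 and other inhibitors at -0.11.

 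In E16.5 epithelium 5.82% of 9938 genes passed, and 14 list genes did, all higher. Of 4 tested ligands Tnf and Il33 rose, Il33 from 0.519 and 0.132 CPM to 36.4 and 20. Il33 is an alarm cytokine and Tnf the prototype activator of the pathway, at 7.53 and 5.41 in controls and 20 ± 3.54 (SD, n = 2) in MOF cKO. Of 6 receptors Tnfrsf12a rose, and none of 19 adaptors and 12 interferon gamma and antigen processing genes passed. Hspa1b and Hspa1a, heat shock genes of the dissociation list, rose as well. Among the other inhibitors, Bcl3 (log2 fold change 3.97, SE 0.552) and Zc3h12a (3.43, SE 0.520) rose, with edgeR adjusted p values of 0.017 and 0.0215. Of 17 output genes 5 rose, including Mmp9, a protease, Ccl20, a chemokine of the epidermis, and Saa3, an acute phase protein. Trib3, a pseudokinase related to Trib1, rose from 0.519 and 0.924 CPM to 10.4 and 7.5. The epithelial cells held 3853694 and 7576619 UMIs in all in controls and 577644 and 800201 in MOF cKO. Low values, such as those of Trib3 and of Il33 in controls, thus rest on few UMIs. No Rel subunit passed edgeR's test (3 of 4 at an unadjusted p under 0.05). None of the 14 was called without MOF cKO replicate 1, 7 were without MOF cKO replicate 2 and 9 without control replicate 1. With library size as the only scaling the split of all called genes went from 465 higher and 113 lower to 263 and 549.

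E16.5 fibroblasts had the most list genes past the threshold. Of all 12569 genes 4.64% passed, and 35 list genes did, all higher in MOF cKO. With library size as the only scaling 32 list genes were called, 28 of them among the 35. All called genes then split into 346 higher and 491 lower, against 305 and 278. Interferon gamma and antigen processing genes gave 10 of 16, with a median log2 fold change of 1.75 beside 0.01 for all genes. Psmb8, an immunoproteasome subunit, stood at 3.2 and 2.79 CPM in controls and at 39.7 and 23.6 in MOF cKO (log2 fold change 3.53, SE 0.350, edgeR adjusted p = 0.0243). The interferon-induced GTPases Gbp3 and Gbp2 rose by log2 fold changes of 3.88 and 3.71. Of 17 output genes 8 rose, including the chemokines Cxcl10, at 5.15 and 2.06 against 303 and 83.9, and Cxcl5, at 7.65 and 2.19 against 206 and 84.2. Saa3 was at 0 in both controls and at 25.8 and 81.8 in MOF cKO. Irf7, Irf8 and Irf9 rose among the relatives of Irf1, Irf7 from 0.695 and 0.863 to 46.0 and 29.1. Nfkb1 was the 1 Rel subunit of 4 that passed (0.72, edgeR adjusted p = 0.0497).

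Upstream of the factor, fewer genes passed. Of 5 tested ligands Il1b and Il33 rose, of 9 receptors Il1r1, of 23 adaptors and kinases Rnf31, Myd88 and Map3k14, and of 14 other inhibitors Bcl3. Map3k14, the kinase of the alternative pathway, stood at 7.79 and 5.64 against 16.7 and 18.2. Dissociation and immediate early genes, which enzyme treatment of tissue is known to raise, gave 6 of 15, among them Socs3 (log2 fold change 2.13), Egr1 and Junb. No list gene was called without control replicate 2, 13 of the 35 were without MOF cKO replicate 1, 21 without MOF cKO replicate 2 and 19 without control replicate 1. Leukocyte markers in E16.5 fibroblasts summed to 111 and 241 CPM in MOF cKO and to 23.0 and 44.9 in controls. Without cells that pass another gate these were 112 and 85.4 against 18.2 and 22.2, and their part in these results was not tested. The 8 members were again higher in both MOF cKO libraries.

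**Figure D5:**
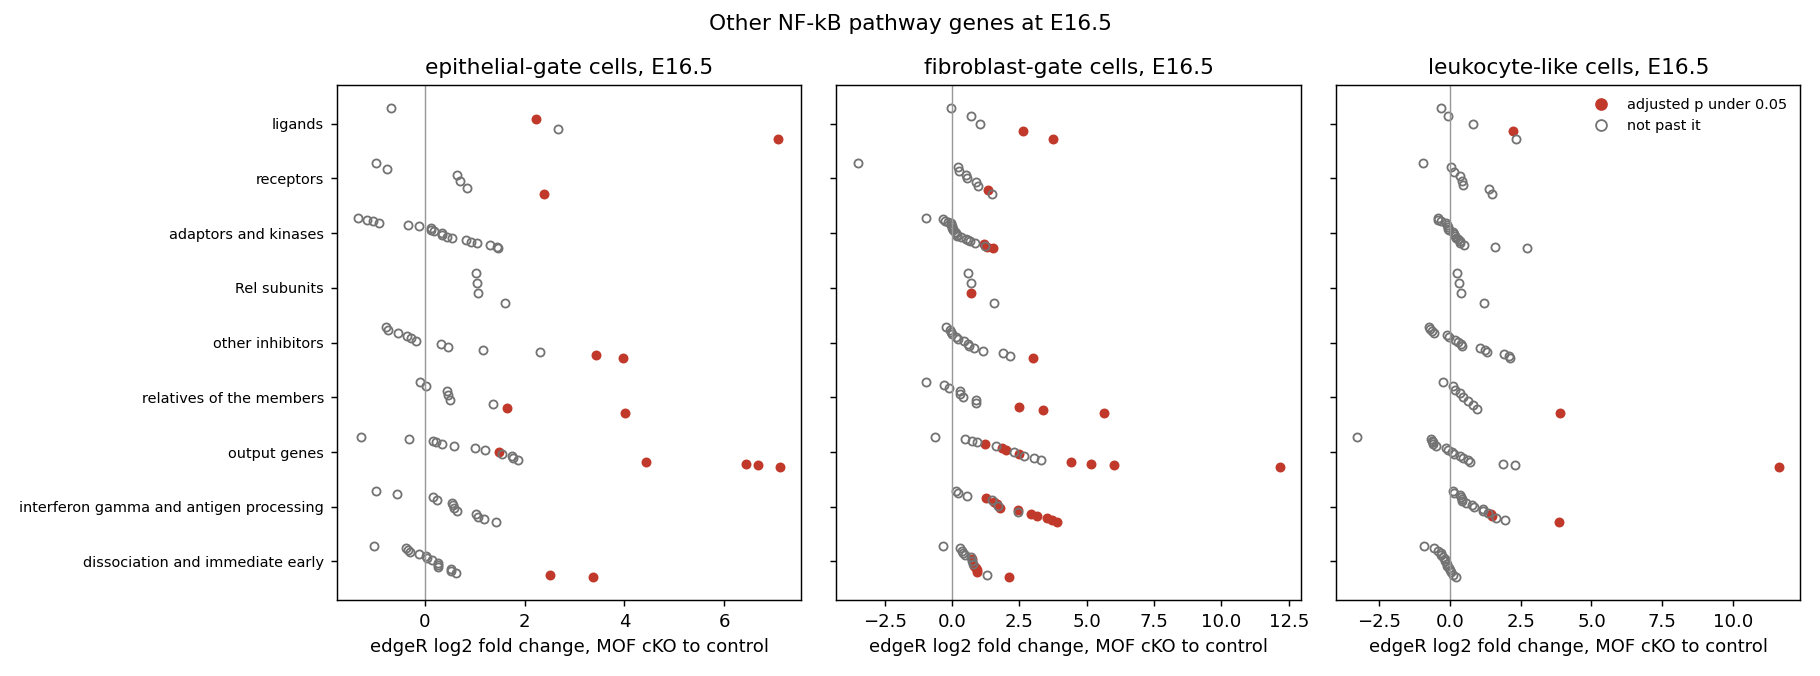
EdgeR log2 fold change, MOF cKO to control, of the pathway genes tested at E16.5, in epithelial cells, fibroblasts and leukocyte-like cells, with 1 point per gene and filled points past an adjusted p of 0.05. Filled points lie to the right of 0 in all 3 panels, 14 in epithelium, 35 in fibroblasts and 6 in leukocyte-like cells.

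In leukocyte-like cells at E16.5, 6 list genes rose: Il18, Irf7, Saa3, B2m, Gbp2 and Tapbp. Irf7 stood at 16.9 and 20.9 CPM in controls and at 264 and 295 in MOF cKO (log2 fold change 3.89, edgeR adjusted p = 0.00867). Saa3 stood at 0 and 1.05 against 3250 and 1550. The gate does not separate kinds of leukocyte. These cells were 5.96% and 4.58% of kept cells in E16.5 controls and 14.7% and 9.98% in MOF cKO. Their median UMIs were 6846.5 and 6925 against 12270 and 10494. The part of cell mix and depth in these values was not tested. At E15.5, 6 list genes rose, including Irf7, Tnip3 and Bcl3, and 5 fell; 3 of the 11 were called without MOF cKO replicate 5 and 6 at a 5% limit on mitochondrial UMIs. At E16.5, 2 of the 6 were called without control replicate 1, and 2 without control replicate 2. The list genes that fell at E15.5, with Tnfaip3 and Nfkbia, were Nfkbid (140 and 104 against 69.2 and 73.4), an IkB protein, Ier3, Il1rl1, Jun and Hspa1b. In endothelial-like cells Fos fell and in pericyte-like cells Cxcl10 rose, the 1 list gene called in each. The Fos call was lost without control replicate 2. The Cxcl10 call, at 4.55 and 10.5 CPM in controls and 69.8 and 16.0 in MOF cKO, was lost by DESeq2, with library size as the only scaling, and without MOF cKO replicate 5.

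At E17.5 the pathway is given by the same lists, again without a test. In fibroblasts 10 of 17 measured output genes were lower by 2-fold or more in QPC cKO, beside 1.49% of all genes, with a median log2 ratio of -1.82. In cells passing 1 gate alone 9 were, beside 1.52%. Ccl7 stood at 353 CPM in the control against 29.9, and Cxcl5 at 95.8 against 13.6, both with intervals that did not overlap. Of 4 Rel subunits 3 were lower by 2-fold, Nfkb1 at 209 against 64.5 and Rel at 58.9 against 25.8. Over the whole fibroblast gate no interferon gamma and antigen processing gene passed 2-fold. In cells passing 1 gate alone Casp1, a caspase, was lower to that extent, at a log2 ratio of -1.03 against -0.99 over the whole gate. In the epithelial gate 13 of 19 output genes were lower by 2-fold, beside 10.0% of all genes, with a median log2 ratio of -2.03. Without cells passing another gate 6 were, beside 0.983%, with a median of -0.30. Cxcl10 went from -3.44 to -0.30 and Ptgs2, a prostaglandin synthase, from -3.02 to 0.67, both chosen after their values were seen. Ccl20 was the 1 output gene higher by 2-fold or more, at 0.521 CPM in the control against 14.3 (log2 ratio 3.33), and at 0.217 against 16.2 (3.82) without cells passing another gate. Ccl7 stood there at 225 against 2.72, and at 7.55 against 1.09 without cells passing another gate.

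Genes of dissociation and stress moved with several of these results. The 16 genes of that list summed to 16600 and 15600 CPM in E15.5 control epithelium and to 8330 and 11700 in MOF cKO. In E16.5 fibroblasts they summed to 8750 and 7100 in controls and 11800 and 12000 in MOF cKO. In E15.5 leukocyte-like cells they summed to 11500 and 9710 in controls and 8070 and 9390 in MOF cKO. Their part in the members' levels was not tested. In E17.5 fibroblasts the sum was 13000 in the control and 14700 in QPC cKO while every member was lower. In E17.5 epithelium it was 10200 in the control against 6330, and 8280 against 5480 without cells passing another gate. In E16.5 epithelium it summed to 7290 and 4600 in controls against 3690 and 4340 while 5 members were higher.

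The genes most like each member were sought over 62 profiles, each a cell class of 1 library, from 10 libraries, among 6258 genes without the members themselves. Levels were taken as log2 of CPM plus 1 and centred on the stage, and profiles of 1 library share its depth. Zfp36 was most like Junb (r = 0.939), Fosl2 and Ier2, which are immediate early genes. Nfkbiz was most like Csrnp1 (r = 0.941), Fosl2 and Ier3. Relb was most like the subunit genes Nfkb1 (r = 0.783) and Nfkb2, then Icam1. Tnfaip3 was most like Nfkbid (r = 0.856), Pim1 and Alox5ap, and Nfkbia like Zfp36l2 (r = 0.825), Nfkb1 and Pim1. Birc3 was most like Rnase4 (r = 0.882), Ifitm2 and Thbs1, and Trib1 like Jak1 (r = 0.80), Tmed5 and H2-D1. Irf1 was most like Gcc1 (r = 0.874), Gm12216 and Tns1, of which Gm12216 lies beside Irf1 on chromosome 11. Without centring on the stage, the most like gene was unchanged for Irf1, Nfkbiz, Birc3 and Zfp36. It became Anxa7 for Relb (r = 0.766, with Nfkb1 and Icam1 no longer among its 3), Pim1 for Tnfaip3 and Nfkbia (r = 0.872 and 0.808) and Iqgap1 for Trib1 (r = 0.770). Compared with each other on the centred levels, Nfkbia and Tnfaip3 had the highest r (0.914), and Irf1 with Trib1 the lowest (0.162).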

How the data were processed

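The deposited values are whole-number counts of UMIs per gene and barcode from 10x 3′ libraries, made by the authors with Cell Ranger (versions 6.1.2 and 1.3.1 in the submitters' processing notes, mm10 build) and not normalised. Doublet removal is not stated in the sources used here, and no caller was run. Cells were kept by the study's limits on genes and mitochondrial UMIs. Cell classes other than the 2 keratin and collagen gates needed 10 UMIs of their own gate genes and are called by their markers. UMIs were summed per class and library. edgeR 4.0.16 (R 4.3.3; filterByExpr, TMM, quasi-likelihood test, Benjamini-Hochberg over all genes tested) was fitted within each stage, in classes with 20 or more cells in every library, and its fold changes are on the TMM scale. Each SE given with edgeR is the size of the log2 fold change divided by the square root of the test's F statistic. It was not fitted by edgeR. DESeq2 1.42.0 was an alternative. The edgeR test was also run on simulated counts. It recovered 0% of 2-fold changes in E16.5 epithelium, 5.15% in E16.5 leukocyte-like cells and 24.5% in E15.5 epithelium. In E15.5 leukocyte-like cells it recovered 77.3%, and 19 of 186 calls were false. False calls were 8 of 41 in E16.5 epithelium and 15 of 122 in E16.5 fibroblasts. A gene that did not pass is thus not shown to be unchanged. Ratios of levels add 1 CPM to each mean. Poisson intervals (95%) cover counting error only. List genes are named by a rule: up to 3 called with the largest change per list and comparison, 2 with the highest level where none was called, and at E17.5 2 with the largest ratio. The members and lists were chosen with earlier results of these data known. The fits without cells passing another gate, those of Schwann-like, melanocyte-like and muscle-like cells, and a crossed pairing were chosen after seeing the data. Some list genes and a motif search are not reported here.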

Additional observations from a re-analysis of the deposited data

Results flagged for a closer look

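The MOF cKO libraries lay below both controls at E15.5 and above both at E16.5 in epithelium for 4 members, which is why they are listed. Both sets of levels entered the choice of members, so this is a description. The share of all genes that turned in this way was not counted. The median log2 ratio over all genes was -0.13 at E15.5 and -0.70 at E16.5. The log2 ratios of Tnfaip3 were -1.49 at the earlier stage and 1.86 at the later. Nfkbia had -0.53 and 0.58, Nfkbiz -0.38 and 0.96, and Zfp36 -0.68 and 0.62. At E16.5 the SDs of both groups on the log2 scale combined to 0.768 for Tnfaip3 and 0.389 for Nfkbia. They were 1.12 for Nfkbiz and 0.892 for Zfp36, larger than the ratios. The E16.5 count of higher members also fell without the top cell of each member and with each cell weighted equally. The difference between the stages was not tested, and stage cannot be told apart from the kit version. The E16.5 MOF cKO values rest on 30 and 39 cells.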

How the results depend on the processing

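Counts of genes past the threshold moved with single libraries, the filter on low counts and the tool. Where leaving out 1 library left a lone sample, it was assumed to vary like the other group. Leaving out 1 library gave 1 to 7015 genes in E15.5 epithelium (7015 without MOF cKO replicate 6), 0 to 114 in E15.5 fibroblasts, 86 to 259 in endothelial-like, 86 to 581 in E15.5 leukocyte-like, 17 to 44 in pericyte-like, 24 to 58 in Schwann-like, 75 to 180 in melanocyte-like and 1 to 85 in muscle-like cells. At E16.5 it gave 39 to 1112 in epithelium, 0 to 369 in fibroblasts and 15 to 257 in leukocyte-like cells. Without a filter on low counts the calls were 47, 186 and 71 in Schwann-like, melanocyte-like and muscle-like cells, 1, 222, 239 and 472 at E15.5 in epithelium, fibroblasts, endothelial-like and leukocyte-like cells, and 2007, 1752 and 635 at E16.5 in epithelium, fibroblasts and leukocyte-like cells. DESeq2 called 1, 25 and 4 genes in Schwann-like, melanocyte-like and muscle-like cells, and 140, 494, 11 and 0 genes at E15.5 in epithelium, fibroblasts, endothelial-like and pericyte-like cells, and 950 and 169 at E16.5 in fibroblasts and leukocyte-like cells. A 5% limit on mitochondrial UMIs gave 0 in melanocyte-like and 2 in muscle-like cells, 37 in endothelial-like cells, 316 in E16.5 epithelium and 29 in E16.5 leukocyte-like cells, a gate set as a share of UMIs gave 1214 in E16.5 epithelium, and library size alone gave 2 in pericyte-like and 7 in muscle-like cells. With a replicate block on the shared numbers of E16.5, 549 genes passed in epithelium, 576 in fibroblasts and 30 in leukocyte-like cells, and a crossed pairing gave 720 in leukocyte-like cells. Deviations of same-numbered samples correlated at -0.017, -0.021 and -0.12, so the numbers were not taken to pair the samples.

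Members apart between the groups in E15.5 epithelium were 3 lower and 2 higher in cells with 10 or more Krt1 and Krt10 UMIs. In E16.5 epithelium the 5 higher members became 3 at a 5% limit on mitochondrial UMIs, 3 in cells under 10 of those keratin UMIs, 2 without the top cell and 1 with each cell equal. Lower members there were 1 at the 5% limit, 1 without the top cell, 1 in cells with 10 or more keratin UMIs, and 0 to 2 when 1 library was left out. In E15.5 fibroblasts leaving out 1 library gave 3 to 6 higher and 0 to 3 lower members, and 1 lower with a gate as a share of UMIs, without cells that pass another gate, at the 5% limit, or with each cell equal. At E17.5 the epithelial members lower by 2-fold were 1 with a gate as a share of UMIs, 1 without cells that pass another gate and 1 in cells with 10 or more keratin UMIs. The cause was not tested for any of these, and shares of all genes were counted only where given above. In E16.5 fibroblasts all 8 members were higher under each alternative run, a count that leaving out a library could not lower. These levels entered the choice of members.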
